A study of Gallus gallus with 12 samples.

Results

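Abdominal fat of HFD chickens was compared with that of ND chickens in 6 of the 12 samples of the series, 3 samples per diet, chosen by the tissue and diet in their labels. Of 18332 genes listed, 12473 had a mean of at least 1 FPKM (fragments assigned to a gene, per kilobase of its transcript and relative to library size) over the 6 samples and were tested. All birds were female Xinghua chickens with the dw gene, labelled 8-weeks-old, which by the methods is their age when the diets began. The dw gene is a growth hormone receptor mutation that gives a dwarf, fat-prone bird, and the controls carry it too. HFD chickens received a high-fat diet and ND chickens a normal diet for 2 weeks, and the sequenced birds were not a random draw: of 6 birds per diet, those with the most abdominal fat for their weight were taken on HFD (3 birds) and those with the least on ND (3 birds). Diet and this choice by fatness cannot be told apart in the values below. Each sample is from 1 bird, and nothing in the labels or methods says whether litters, days or library batches were shared.

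In birds most fatty acid synthesis takes place in the liver, and abdominal adipocytes take up lipoprotein fatty acids through lipoprotein lipase, esterify them to triglyceride and coat the droplet with perilipins. PPARG and CEBPA are the transcription factors that hold the adipocyte state. Lipolysis by the lipase PNPLA2, its activator ABHD5 and its inhibitor G0S2 releases the stored fatty acids again. Adipose tissue also holds stromal cells, vessels and immune cells, so its RNA is a mixture.

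The adipocyte state was plain in all 6 samples: the summed FPKM of 10 adipocyte markers lay between 14017 and 17146, with FABP4, the adipocyte fatty acid carrier, at 9917 to 12512. Other cell types were not equal between birds. The sum of 29 hepatocyte markers was 4689 FPKM in ND bird 2 and 35.2 to 167 in the other 5 birds. Of the 29, 28 were highest in ND bird 2. There the 29 stood at a median of 4.37% of their level in ND liver, with single markers at 2.93% to 50.0%. In HFD bird 1 the median was 0.0757% and the highest marker was at 33.3%. The sum of 14 B and plasma cell markers was 3818 FPKM in ND bird 1 and 149 to 175 elsewhere. Skeletal muscle markers summed to 529 FPKM in HFD bird 1 and to 17.9 to 63.6 in the others. Endothelial markers (1357 FPKM in ND bird 3, 830 to 994 elsewhere) and erythroid markers (1829 against 286 to 1035) were highest in ND bird 3. In bulk tissue, fewer cells of a type and less RNA per cell cannot be told apart. Pearson's r of log2(FPKM + 1) across genes was 0.97 to 0.973 between HFD birds and 0.943 to 0.956 between ND birds. Between HFD and ND birds it was 0.943 to 0.969, a range that holds all ND pairs. These values only describe the samples, since genes are not independent.

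**Figure D1:**
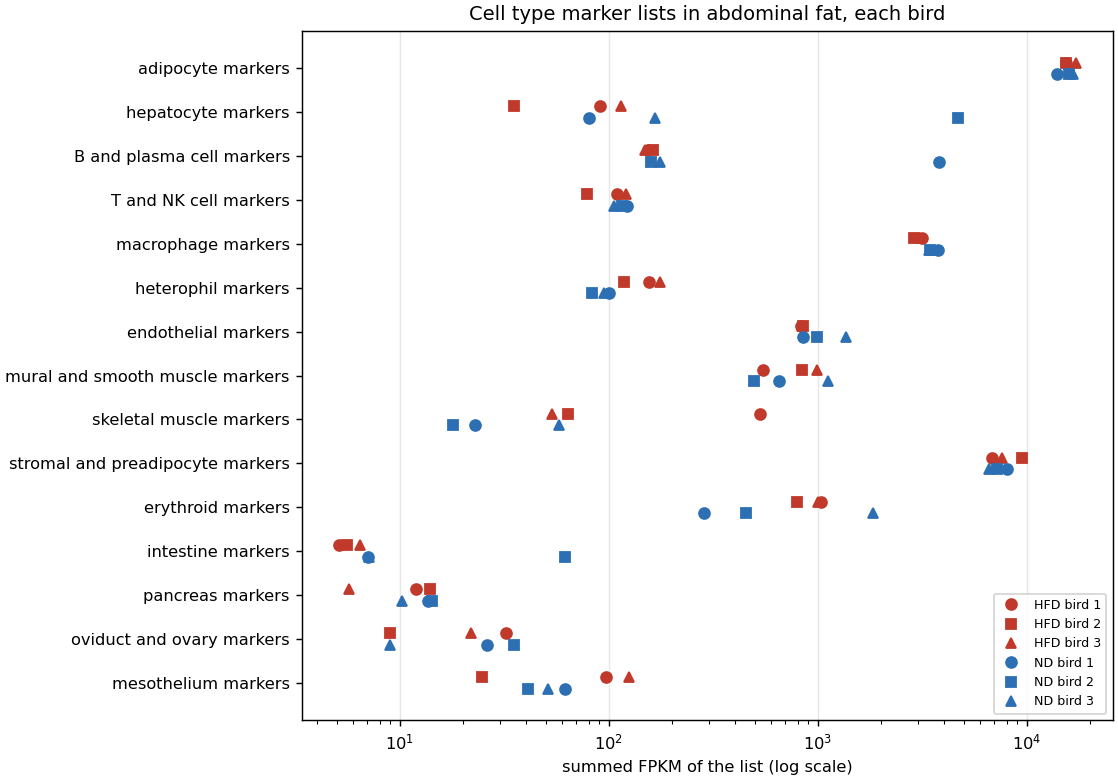
Summed FPKM (log scale) of each cell type marker list in each of the 6 birds, HFD in red and ND in blue, with a symbol per bird number. ND bird 2 stands apart for hepatocyte markers (4689 FPKM), ND bird 1 for B and plasma cell markers (3818 FPKM) and HFD bird 1 for skeletal muscle markers (529 FPKM), while adipocyte markers are close together in all birds.

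With limma over all 12473 genes, 1 gene passed an adjusted p of 0.05, the lower HIST1H2A3 (0.00802% of genes tested), and 0 genes passed as higher. An unadjusted p under 0.05 was reached by 375 genes as higher (3.01%) and by 432 as lower (3.46%) in HFD chickens, 6.47% together. Scaling moved this split: it was 275 higher and 577 lower after rescaling each sample to the same sum, and 461 higher and 330 lower after quantile normalization. Genes are also described by full separation, in which all HFD birds lie above or below all ND birds. This held for 709 genes higher (5.68%) and 1068 lower (8.56%), and a single gene so separated has an exact two-sided permutation p of 0.1, the smallest that 3 against 3 allows. ND birds 1 and 2 are those with immunoglobulin and liver transcripts. A separated gene is called steady here when the mean log2(FPKM + 1) differed by at least 0.5 in the same direction without ND bird 1, without ND bird 2 and without both. The difference over all 6 birds was not part of this rule, and its smallest size was 0.46 among steady higher and 0.44 among steady lower genes. There were 82 steady genes higher (0.657%) and 95 lower (0.762%), 1.42% together, and 25 and 29 of these have only a LOC number. Every gene named from here on other than HIST1H2A3 had an adjusted p of at least 0.693 where it was tested, so "higher" and "lower" describe the birds sequenced.

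HIST1H2A3 and HIST1H2A4, copies of the replication-dependent histone H2A gene, went opposite ways. HIST1H2A3 was listed at 0 in all 3 HFD birds and at 4.56, 6.59 and 4.79 FPKM in ND birds 1 to 3 (log2 difference -2.64, SE 0.18, limma adjusted p = 0.0328). This call was lost with a pseudocount of 0.1 (adjusted p = 0.107) and without any single bird (0.0648 to 0.344). HIST1H2A4 was at 12.8, 9.91 and 12.2 FPKM in HFD birds and at 0, 3.30 and 0 in ND birds, and without ND bird 2 it passed the test (adjusted p = 0.00906). The 6 H2A copies in the files belong to a family of closely similar genes, and how reads were divided among them was not tested. The sum of the 6 copies was 35.4, 22.7 and 25.2 FPKM in HFD and 18.3, 23.0 and 20.7 FPKM in ND birds, which overlapped. Single H2A copies are therefore uncertain.

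Among genes that make fatty acids, the desaturase SCD, which forms oleic acid from stearic acid, was higher in HFD chickens. SCD was at 737, 689 and 713 FPKM in HFD birds 1 to 3 and at 357, 557 and 188 in ND birds 1 to 3. The HFD birds were nearly level while the ND birds spread widely, and the groups did not overlap (1.94 times the ND mean, log2 difference 1.09, SE 0.37, adjusted p = 0.727). The difference was 1.14 without ND bird 1 and 1.46 without ND bird 2. SCD5, a second desaturase, was at 11.8, 9.99 and 11.2 FPKM in HFD and 8.34, 4.85 and 7.70 FPKM in ND birds. THRSP (Spot 14), a nuclear protein tied to lipogenic expression and among the most abundant mRNAs here, was at 2594, 2406 and 2746 FPKM in HFD and 1929, 2241 and 1795 FPKM in ND birds. THRSP differed by only 0.38 on the log2 scale (SE 0.13) and was not steady. FASN, the fatty acid synthase itself, showed no such separation: 52.0, 41.0 and 44.1 FPKM in HFD birds lay within 33.0 to 55.1 FPKM in ND birds, and the log2 difference was 0.06 (95% interval -0.41 to 0.54). ELOVL6, which lengthens palmitic acid, separated as lower, but by a narrow margin apart from ND bird 2, the bird with liver transcripts, which was at 31.8 FPKM against 5.20 to 6.45 FPKM in the other 5. Of 26 tested genes for fatty acid synthesis and desaturation, 4 separated as higher and 1 as lower, and the median log2 difference was 0.06, beside -0.03 over all genes. In this and the following lists, counts of separated members stand beside 5.68% higher and 8.56% lower among all genes, and nothing particular to a list is read from them.

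Of the genes for triglyceride synthesis, DGAT2, the enzyme of the last step from diacylglycerol, had the widest difference. It was at 556, 448 and 628 FPKM in HFD birds and at 65.4, 424 and 125 FPKM in ND birds. ND bird 2 nearly reached the lowest HFD bird, and the other ND birds were far below (log2 difference 1.82, SE 0.63, 95% interval 0.32 to 3.32, adjusted p = 0.727). The liver share of ND bird 2, 4.37% of the ND liver level, came to 0.0422 FPKM for DGAT2, beside the 424 FPKM measured. AGPAT2, which acylates lysophosphatidic acid, was higher by 0.30 (SE 0.09) with 16.9 to 18.8 FPKM in HFD and 13.4 to 14.9 FPKM in ND birds. GPAM, the mitochondrial enzyme of the first acylation, was lower, with 2.35, 2.09 and 2.10 FPKM in HFD and 3.32, 3.39 and 2.83 FPKM in ND birds, as was the phosphatidate phosphatase LPIN2. Over 15 tested genes of the list, 2 separated as higher and 2 as lower, and the median was -0.09.

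**Figure D2:**
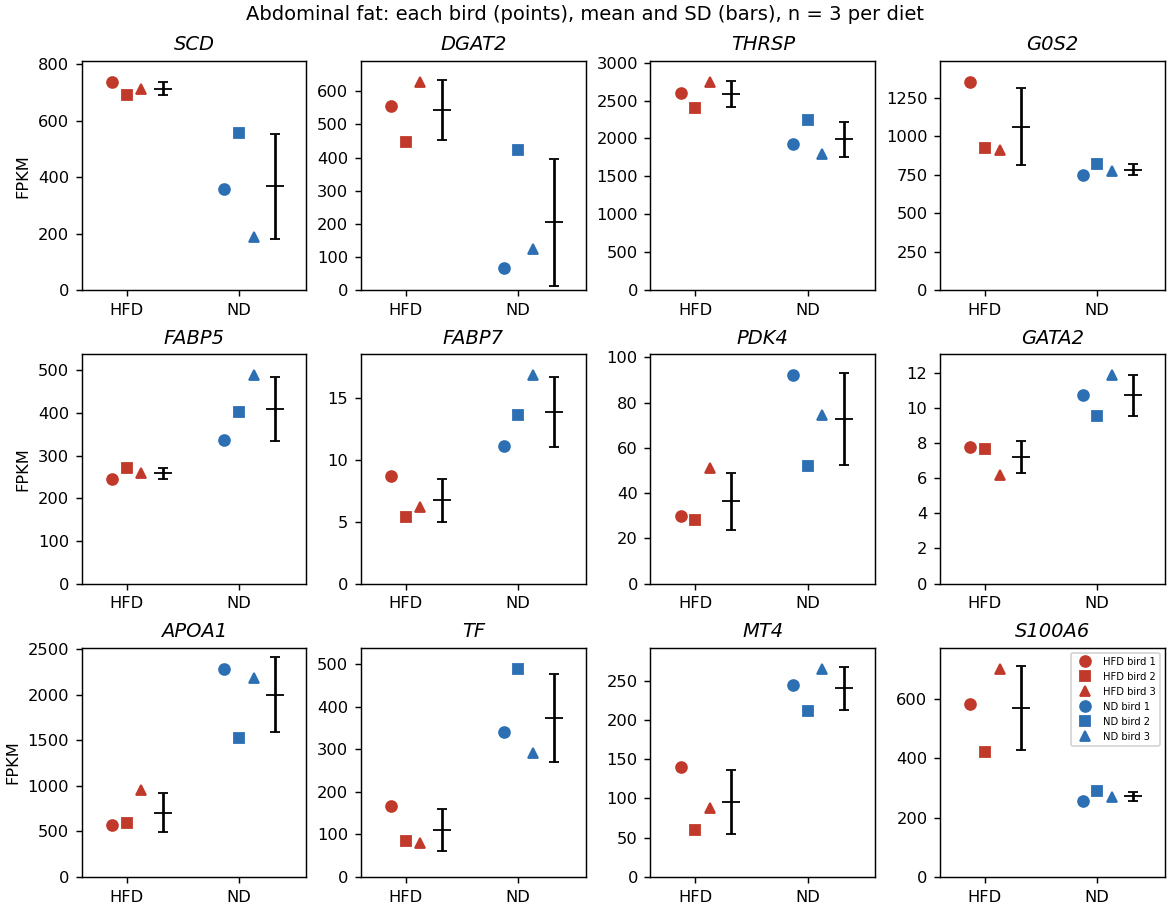
FPKM of 12 genes in each bird, HFD in red and ND in blue, with the mean and SD of 3 birds per diet beside the points and axes that start at 0. The 3 HFD birds lie above the ND birds for SCD, DGAT2, THRSP, G0S2 and S100A6 and below them for FABP5, FABP7, PDK4, GATA2, APOA1, TF and MT4, and ND bird 2 is the ND bird nearest to HFD for DGAT2 (424 FPKM) and SCD (557 FPKM).

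On the lipid droplet, the lipase and its inhibitor were both higher in HFD chickens. G0S2, the inhibitor of the lipase, was at 1355, 924 and 913 FPKM in HFD and 752, 822 and 776 FPKM in ND birds (log2 difference 0.42, SE 0.17). PNPLA2, the lipase itself, was at 873, 866 and 906 FPKM in HFD and 766, 859 and 524 FPKM in ND birds, with ND bird 2 just under the HFD range. ABHD5, the activator of this lipase, was lower, at 69.2, 68.5 and 66.4 FPKM in HFD and 90.9, 81.8 and 75.0 FPKM in ND birds. PLIN4, a perilipin that coats nascent droplets, was higher at 1585 to 2091 FPKM against 947 to 1567 FPKM. PLIN1, the main adipocyte perilipin, overlapped at 1877 to 2202 and 1840 to 2136 FPKM, with a difference of 0.02 (95% interval -0.27 to 0.30). CIDEC, which fuses droplets, overlapped too, with 350 to 482 and 320 to 395 FPKM. None of these was steady, and over 19 tested members 3 separated as higher and 1 as lower, with a median of -0.05.

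Of genes for fatty acid uptake and binding, FABP5 and FABP7, intracellular fatty acid carriers related to FABP4, were lower in HFD chickens. FABP5 was at 245, 271 and 260 FPKM in HFD and at 337, 403 and 488 FPKM in ND birds (0.631 times the ND mean, log2 difference -0.65, SE 0.15). FABP7 was at 8.65, 5.36 and 6.15 FPKM in HFD and at 11.1, 13.6 and 16.8 FPKM in ND birds (log2 difference -0.95, SE 0.20). FABP7 is abundant in liver (mean 153 FPKM over 6 liver samples), and with the liver share taken off (4.37% of the ND liver level, a step added after the data were seen), ND bird 2 was at 5.10 FPKM and the diets overlapped, whereas FABP5 kept its separation. The dominant carrier FABP4 (10331 to 12425 FPKM in HFD and 9917 to 12512 FPKM in ND), the scavenger receptor CD36 and LPL overlapped, with log2 differences of 0.03, -0.02 and 0.17. DBI, the acyl-CoA binding protein, was higher in HFD birds, at 578 to 603 FPKM against 434 to 568 FPKM. In all, 1 of 26 members separated as higher and 3 as lower.

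In fatty acid oxidation, PDK4, the kinase that shuts pyruvate out of the citric acid cycle when fatty acids are burnt, was at 30.0, 28.3 and 50.9 FPKM in HFD and at 92.1, 51.8 and 74.5 FPKM in ND birds. HFD bird 3 and ND bird 2 were almost level, and with the liver share taken off ND bird 2 was at 46.9 FPKM and the groups overlapped (log2 difference as deposited -0.99, SE 0.29). CPT1A, which admits fatty acids to the mitochondrion, overlapped, with 23.9 to 29.6 FPKM in HFD and 28.8 to 38.5 FPKM in ND birds (log2 difference -0.28, 95% interval -0.63 to 0.06). ETFB, the electron transfer flavoprotein that takes electrons from fatty acid oxidation, was higher at 63.5 to 76.8 FPKM against 52.3 to 61.0 FPKM. BDH1 and OXCT1, enzymes of ketone body use, were higher by 0.37 and 0.15. Of 34 members, 3 separated as higher and 1 as lower.

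The 70 genes of the respiratory chain and ATP synthase were nearly all slightly higher in HFD chickens. A positive difference held for 68, beside 5546 of all 12473 genes, and the median was 0.23, beside -0.03. Of the 70, 20 separated as higher (28.6%, beside 5.68% of all genes) and 0 as lower. An unadjusted limma p under 0.05 was reached by 6, all higher (8.57%, beside 3.01% of all genes), and 0 were steady. NDUFB2, a subunit of complex I, was at 395, 326 and 319 FPKM in HFD and at 188, 281 and 256 FPKM in ND birds. ATP5B, the catalytic beta subunit of ATP synthase, was at 413, 394 and 383 FPKM in HFD and at 267, 373 and 313 FPKM in ND birds. The pattern was unequal among birds: 62 of the 70 were lowest in ND bird 1, which carries the immunoglobulin transcripts, and 59 were highest in HFD bird 1, which carries the skeletal muscle transcripts. Without ND bird 1 the median was 0.10 and 20 members separated as higher (9.68% of all genes). Without HFD bird 1, 21 separated as higher and 2 as lower, beside 8.19% and 13.7% of all genes. ND bird 1 also had the lowest summed FPKM over all genes (459400) and HFD bird 1 the highest (499700). The part of muscle and B cell transcripts in this pattern was not tested.

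Cholesterol synthesis was where ND bird 2 mattered most. Of 24 tested genes, 21 had a positive difference, beside 5546 of the 12473 genes tested, and the median was 0.24. Only PMVK, phosphomevalonate kinase, separated the diets (21.2, 21.3 and 20.2 FPKM in HFD against 16.8, 17.5 and 18.1 FPKM in ND birds). LSS, which closes the sterol ring, shows the usual form: 14.2, 16.1 and 15.5 FPKM in HFD birds, 6.30 and 7.94 FPKM in ND birds 1 and 3, and 23.5 FPKM in ND bird 2. SQLE, MSMO1 and FDPS, enzymes of the same pathway, had this order as well. Without ND bird 2 the median was 0.47 and 16 of the 24 separated as higher (10.6% of all genes), while without ND bird 1 only PMVK separated as higher. SREBF2, the transcription factor of the pathway, was among the 16, at 56.4, 62.2 and 62.2 FPKM in HFD birds against 40.8 and 46.1 FPKM in ND birds 1 and 3 and 64.9 FPKM in ND bird 2. ND bird 2 was the highest ND bird for 22 of the 24 genes. Its liver share came to a median of 7.79% of its level of these genes, and with that share taken off it was above ND birds 1 and 3 for 19 of the 24. Fatty acid synthesis had a like dependence: 11 of 26 members separated as higher without ND bird 2, ACLY, ACACA, ME1 and SREBF1 among them. What sets ND bird 2 apart in these genes was not tested.

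**Figure D3:**
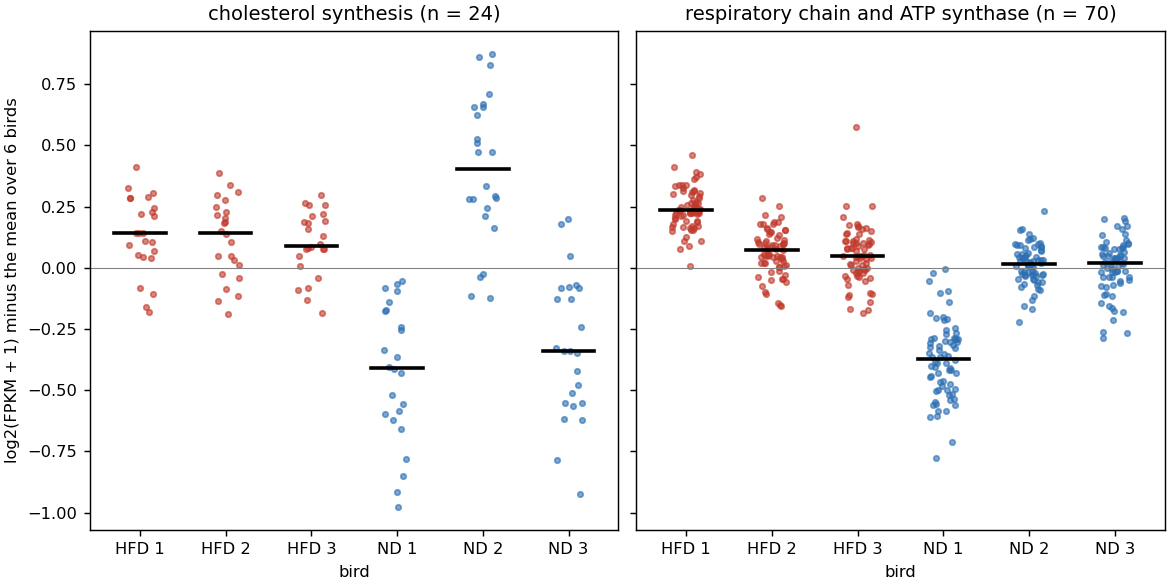
Each dot is a gene in a bird, as log2(FPKM + 1) minus that gene's mean over the 6 birds, for 24 cholesterol synthesis genes and 70 respiratory chain and ATP synthase genes; black bars are medians. For cholesterol synthesis ND birds 1 and 3 lie low (medians -0.41 and -0.34) and ND bird 2 high (0.40), whereas for the respiratory chain ND bird 1 lies low (-0.37) and HFD bird 1 high (0.24).

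**Figure D4:**
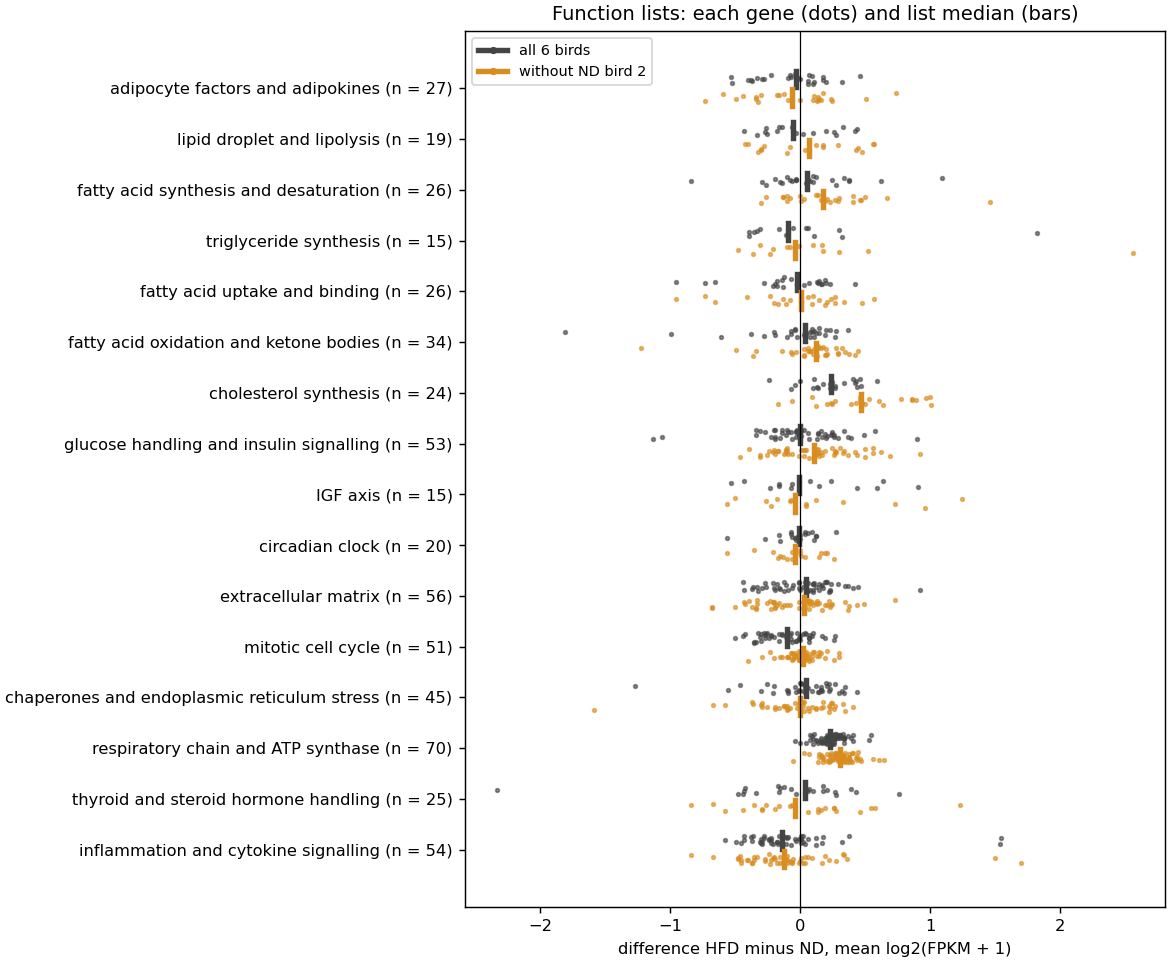
Difference of HFD minus ND in mean log2(FPKM + 1) for each gene (dots) and the median (bars) of 16 function lists, with all 6 birds in grey and without ND bird 2 in orange. The median of the cholesterol list goes from 0.24 to 0.47 without ND bird 2 and that of the respiratory chain from 0.23 to 0.30, and most other medians stay within 0.2 of 0.

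The factors that define adipocytes mostly overlapped between diets. PPARG was at 36.9, 27.1 and 33.4 FPKM in HFD and 31.8, 33.8 and 26.7 FPKM in ND birds, a log2 difference of 0.07 (95% interval -0.28 to 0.43). CEBPA was at 367, 279 and 272 FPKM in HFD and 216, 328 and 151 FPKM in ND birds (0.46, interval -0.23 to 1.14), again with ND bird 2 inside the HFD range. ADIPOQ, the hormone adiponectin, was at 138 to 181 FPKM in HFD and 106 to 190 FPKM in ND birds. GATA2 and GATA3, factors known from mouse to hold preadipocytes back from differentiation, were lower. GATA2 was at 7.75, 7.69 and 6.16 FPKM in HFD and at 10.7, 9.56 and 11.9 FPKM in ND birds (log2 difference -0.52, SE 0.13), and was steady, whereas GATA3, at 1.12 to 1.34 against 1.48 to 2.21 FPKM, was not. Of 27 members, 0 separated as higher and 2 as lower. GATA2 is also expressed in endothelial cells, whose markers were highest in ND bird 3, where GATA2 was highest too. The part of these cells was not tested.

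For glucose handling and insulin signalling, 4 of 53 genes separated as higher and 2 as lower, beside 5.68% and 8.56% of all genes, and the members below are given as values only. The glycolytic enzyme PGAM1 was at 279, 189 and 216 FPKM in HFD and at 128, 176 and 150 FPKM in ND birds (log2 difference 0.58, SE 0.18), and ALDOC, an aldolase, at 195, 154 and 191 against 98.2, 140 and 150 FPKM. SLC2A5, a fructose transporter, was higher at 7.37 to 8.54 against 4.60 to 7.25 FPKM. IRS4, a docking protein of the insulin receptor, was lower at 4.68 to 5.43 against 5.83 to 7.09 FPKM. In the IGF axis, the RNA-binding proteins IGF2BP2 and IGF2BP3 were lower, with IGF2BP2 at 2.29, 2.70 and 2.64 FPKM in HFD and 4.93, 4.37 and 3.22 FPKM in ND birds. IGF2BP1 was below the limit of 1 FPKM and not tested: it was at 0.03, 1.08 and 0.11 FPKM in HFD and at 0.03, 0.03 and 0 FPKM in ND birds, so HFD bird 2 alone stood out. PCK1, the enzyme of glyceroneogenesis, was not tested for the same reason, at 0.08 to 0.53 and 0.04 to 1.67 FPKM. IGFBP2 and IGFBP7, the most abundant genes of the list, overlapped. Of 20 circadian genes, the repressor BHLHE41 alone separated, at 1.94, 2.88 and 2.77 FPKM in HFD and 4.27, 4.13 and 4.05 FPKM in ND birds, and it was steady (log2 difference -0.56, SE 0.15). Of 25 genes for thyroid and steroid hormone handling, 0 separated as higher and 2 as lower, among them HSD17B1, which reduces estrone to estradiol, at 4.27 to 5.01 against 5.52 to 6.90 FPKM.

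The genes chosen by gap among the steady lower genes included TF, APOA1, MT3 and MT4. TF, the iron carrier transferrin, was at 167, 84.8 and 78.9 FPKM in HFD and at 341, 489 and 291 FPKM in ND birds (0.295 times the ND mean, log2 difference -1.80, SE 0.33). TF is a liver product as well, and taking off the liver share lowered ND bird 2 to 208 FPKM, still above the HFD birds. This share is a median over markers that ranged from 2.93% to 50.0%. The upper end alone does not mark liver RNA, since a marker reached 33.3% in HFD bird 1, whose median was 0.0757%. Whether TF or other genes stay separated at another share was not tested. APOA1, the main protein of high-density lipoprotein, was at 575, 592 and 951 FPKM in HFD and at 2287, 1526 and 2183 FPKM in ND birds (log2 difference -1.52, SE 0.25). The liver share would supply 1369 FPKM of APOA1 in ND bird 2, which leaves 157 FPKM and ends the separation. Hepatocyte markers summed to 80.4 and 167 FPKM in ND birds 1 and 3 and to 35.2 to 114 FPKM in HFD birds. Their median share of the ND liver level was 0.0756% and 0.136% in ND birds 1 and 3. In HFD birds it was 0.00942% to 0.0789%. The part of liver transcripts in the difference of APOA1 was not tested. The metallothioneins MT3 and MT4, small proteins that bind zinc and copper, were lower together. MT4 was at 140, 59.3 and 87.6 FPKM in HFD and at 244, 211 and 265 FPKM in ND birds, and MT3 at 6.78, 3.17 and 6.57 against 14.6, 11.6 and 15.1 FPKM. With the liver share taken off, ND bird 2 was at 172 FPKM for MT4 and 9.82 FPKM for MT3, still above the HFD birds. Of the 95 steady lower genes, 13 lost separation with the liver share taken off, and these include FGA, SERPINC1 and APOA4, liver-made plasma proteins whose ND level came almost wholly from ND bird 2 (104, 44.5 and 55.9 FPKM there).

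The steady higher genes were of mixed function. S100A6, a calcium-binding protein, was at 584, 419 and 702 FPKM in HFD and at 256, 289 and 268 FPKM in ND birds (2.10 times the ND mean, log2 difference 1.04, SE 0.19). CDH13, T-cadherin, the receptor that holds adiponectin at the cell surface, was at 137, 146 and 172 FPKM in HFD and at 94.9, 103 and 93.9 FPKM in ND birds. The ND birds were close together for both genes. MUSTN1, listed as RP5-966M1.6 and known as a small nuclear protein of muscle and skeletal tissue, was at 99.6, 99.9 and 110 against 63.0, 43.0 and 59.0 FPKM. NSMCE3, listed as NDNL2 and a subunit of the SMC5/6 DNA repair complex, was at 36.9, 40.9 and 44.7 FPKM in HFD and at 24.8, 14.2 and 15.9 FPKM in ND birds. REM1, a small GTPase that damps calcium channels, was at 42.5, 45.2 and 44.3 against 14.4, 30.2 and 21.5 FPKM. These 3 are not classical lipid genes. SLC5A6, the carrier of biotin and pantothenate, cofactors of fatty acid synthesis, was at 27.5, 26.2 and 35.8 against 14.1, 19.0 and 17.1 FPKM. SOST, the secreted Wnt inhibitor sclerostin, was at 16.6, 16.8 and 34.2 against 6.92, 11.9 and 4.91 FPKM, so HFD bird 3 stood above the other HFD birds. GDF10, a TGF-beta family ligand, the peptide EDN2 (endothelin), the receptor GPR132 and the immunoglobulin-like receptor CHIR-AB-487 were also chosen by gap. So were the adaptor SH2D1B and ASPHD1, listed as ASPHD2. From GDF10 to ASPHD1, the mean log2 differences lay between 0.82 and 0.96. EEF1A2, the elongation factor of muscle and neurons, was highest at 19.8 FPKM in HFD bird 1, the bird with muscle transcripts, with 3.94 and 7.77 FPKM in the other HFD birds and 1.40 to 2.05 FPKM in ND birds. ACTA1, skeletal alpha-actin, was likewise highest in HFD bird 1 (248 FPKM) and separated by a narrow margin (50.0 in HFD bird 3 against 49.7 FPKM in ND bird 3), while MYL1, a myosin light chain, was at 67.3 FPKM in HFD bird 1 and at 0 to 0.49 FPKM in the others.

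The other steady lower genes chosen by gap were of mixed function. JAG2, a Notch ligand, was at 7.43, 7.88 and 6.11 FPKM in HFD and at 13.1, 11.5 and 16.3 FPKM in ND birds. SLC16A1, the lactate and ketone body carrier MCT1, was at 31.0, 22.9 and 27.4 against 43.5, 44.7 and 57.8 FPKM. TRIM24, a nuclear receptor coregulator, was at 3.98, 3.70 and 3.27 against 6.77, 7.41 and 6.12 FPKM. As deposited, the groups did not overlap for these, which the rule for steady genes requires. SLC16A1 is abundant in liver (mean 145 FPKM there). With the liver share taken off, ND bird 2 was at 37.4 FPKM of SLC16A1, still above the HFD birds. NPTX2 (a neuronal pentraxin), ITPR3 (an inositol trisphosphate receptor), MUC13 (a mucin), FCHO1 (an endocytosis factor), P2RY8 (a G protein-coupled receptor), PCDHA12 (a protocadherin) and LRP2BP were lower as well, with log2 differences between -1.11 and -0.63. ND bird 3 was the highest bird for 65 of the 95 steady lower genes, against 15 each for ND birds 1 and 2. The definition of steady, which asks for a difference with ND bird 3 alone, favours this. Sample weights from limma, lower where a sample strays from its group, were 0.549 for ND bird 3 and 0.807 to 1.55 for the others. Of 14 endothelial markers, 11 were highest in ND bird 3, PECAM1 and VWF separated as lower and 0 were steady, and LYVE1 and PROX1 had a positive log2 difference (0.86 and 0.08) with overlapping diets. The part of endothelial RNA in the steady lower genes was not tested. A stricter rule, added after the data were seen, asked each ND bird alone to differ by at least 0.5 from the HFD mean. Under it 51 of the 82 higher and 43 of the 95 lower genes stayed steady. SCD, DGAT2, FABP5, GATA2 and LRP2BP did not. CLU, GAS6, HSDL1 and DENND3, steady genes named below, did not either.

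In protein folding, HSP25, a small heat shock protein, was at 73.3, 141 and 80.5 FPKM in HFD and at 160, 147 and 501 FPKM in ND birds, with ND bird 3 far above the rest and HFD bird 2 close to ND bird 2 (log2 difference -1.27, SE 0.50). DNAJB11, a cochaperone of the endoplasmic reticulum, was at 33.7, 34.5 and 35.5 against 26.5, 26.3 and 27.9 FPKM. It was narrow within each diet but not steady, with a log2 difference of 0.35 (SE 0.08). HSP90B1, MANF and PDIA4 of the same compartment were higher and DNAJC3 and SESN2 lower. HSPA5, PDIA3 and DNAJB9, also of this compartment, overlapped with all 6 birds. They separated as higher only without ND bird 3, where 12.7% of all genes did. Of the 45 genes of this list, 6 separated as higher and 3 as lower, with a median of 0.05. In the extracellular matrix, LUM (lumican), TIMP2 and COL18A1 were the 3 of 56 genes that separated as higher, a share near the 5.68% of all genes, and 0 separated as lower, while the abundant SPARC and COL3A1 overlapped. Of 51 cell cycle genes, 3 separated as higher, the regulators E2F1, CDKN1A and GADD45B, again near the 5.68% of all genes, and 0 as lower. In this list 35 of the 51 were highest in ND bird 2 and 29 lowest in ND bird 3.

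Of 54 genes of inflammation and cytokine signalling, 16 had a positive difference, with a median of -0.14, beside 5546 of 12473 genes and a median of -0.03 over all genes. This median rested largely on ND bird 1, in which 24 of the 54 were highest. It was -0.04 without ND bird 1 and 0.07 against ND bird 3 alone. TLR4, the receptor of lipopolysaccharide, was at 9.77, 9.10 and 9.40 FPKM in HFD and at 12.9, 15.5 and 11.6 FPKM in ND birds (log2 difference -0.45, SE 0.12). IL10RA, IRF1 and LTA4H separated as lower too, 4 of 54 (7.41%, beside 8.56% of all genes), a share near that of all genes. CXCL14, a chemokine, was the steady higher member, at 0.41, 2.32 and 6.30 FPKM in HFD and 0.26, 0.04 and 0.04 FPKM in ND birds. Of 12 tested T and NK cell markers, 6 separated as lower, among them CD3E at 6.81, 6.19 and 7.96 against 16.2, 8.76 and 9.61 FPKM. GNLY and GZMA had a positive log2 difference (0.49 and 0.1) with overlapping diets. The summed FPKM of the list overlapped, at 78.5 to 121 in HFD and 105 to 122 in ND birds. Of its 15 members, 13 were highest in ND bird 1, the bird with B and plasma cell transcripts. Of 16 macrophage markers, 4 separated as lower, CD74, PTPRC, TLR4 and CYBB. The sum of the 16 was 2900 to 3165 FPKM in HFD and 3388 to 3762 FPKM in ND birds. CD74, the MHC class II invariant chain, was the bulk of it. C1QB, C1QC, MRC1 and LY86 had a positive log2 difference (0.17, 0.18, 0.19 and 0.12) with overlapping diets. The list median was -0.2 with all birds, -0.02 without ND bird 2 and 0.18 against ND bird 3 alone. Of 4 tested heterophil markers, 1 separated. RSFR, a leukocyte ribonuclease, was steady and higher, at 146, 107 and 144 against 85.4, 68.9 and 68.5 FPKM. S100A12 (listed as S100A9), LYZ and CSF3R overlapped, with log2 differences of 0.60, -0.49 and -0.29. The part of immune cell RNA in these values was not tested.

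Members nearest the limits give the edges of these sets. TMEM218, with a mean of 1 FPKM, was tested and LOC107051216, at 0.998 FPKM, was not. The smallest log2 difference without ND birds was 0.5007 for HSDL1 (higher) and 0.5013 for DENND3 (lower), just inside the limit of 0.5. C26H6ORF125 (higher) and ASCL3 (lower) lay just outside it, at 0.4997 and 0.4997.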

How the data were processed

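Abdominal fat RNA of 3 HFD and 3 ND chickens was read on a BGISEQ-500 instrument. FPKM values per gene were deposited by the authors, and the submitters' processing notes name HISAT2 2.0.4, Bowtie2 2.2.5 and RSEM 1.2.12; the genome build is not given in the sources used here. Counts were not used here and the depth is unknown. Ratios of low FPKM values to those of HFD bird 1 were most often 0.951 to 0.99. These peaks held only 80 to 90 of 2599 to 2736 genes, so the depth cannot be read from them.

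Values were tested as log2(FPKM + 1) with limma 3.58.1 (R 4.3.3; eBayes with trend, two-sided, Benjamini-Hochberg adjustment) over the genes that reached a mean of 1 FPKM, with diet as the only term. Fold changes on this scale understate the change of low genes. On simulated data with 200 changed genes, 65%, 94% and 96% were found at log2 changes of 1, 2 and 3. Of the unchanged genes, 13, 8 and 6 were called. The simulation drew noise separately for each gene and changed only genes with a mean log2(FPKM + 1) above 2. It held no shift shared by many genes of 1 bird, so these shares need not hold for the birds sequenced. The limit for a call was an adjusted p of 0.05. The replicate numbers were not used to pair the birds.

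The 16 function lists, 15 marker lists and members were chosen with earlier results of these data known. Named genes were called genes and the 15 steady genes with the widest gap in each direction (LOC numbers apart). Up to 4 steady members per function list (2 most abundant where none), 18 hallmark genes and up to 3 top members per marker list were named too. Other list members were named by their values: they separated the diets, separated them only without a bird, or overlapped. The rest are named as chosen later. Alternatives were a pseudocount of 0.1, other filters, scalings and weights, a fit of all 12 samples, a replicate block and leaving out birds. Single values of some list members are not reported here.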

Additional observations from a re-analysis of the deposited data

How the results depend on the processing

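Depth, the selection of birds by fatness and other cell types limit these values. The count of genes at an adjusted p of at most 0.05 (0 higher and 1 lower) became 1 higher and 0 lower in a fit of all 12 samples, was 0 lower with a pseudocount of 0.1 and without ND birds 1 and 2, and ranged from 0 to 2 higher and 0 to 1 lower when each bird was left out. At an unadjusted p under 0.05, leaving out each bird gave 237 to 519 higher and 294 to 717 lower genes, and leaving out ND birds 1 and 2 gave 568 and 762. Full separation, which fewer birds make easier, gave 1021 to 1583 higher and 1480 to 2227 lower genes when each bird was left out. The count of steady lower genes was 154 after rescaling to the same sum, and the steady counts were 51 higher and 43 lower with a difference of 0.5 from each ND bird, and 132 and 163 without HFD bird 1. Other counts stayed within 1.5 times.

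With the replicate number as a block, 0 genes passed as lower, HIST1H2A3 having an adjusted p of 0.296, and 329 genes were higher and 414 lower at an unadjusted p under 0.05. The deviations of same-numbered birds correlated at 0.018, -0.152 and 0.043, and those of differently numbered birds at -0.18 to 0.147. These values cannot tell whether a number marks a shared day or batch.

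Of 68 single genes, 11 changed sign somewhere, all near 0. PLIN1 was at -0.02 after rescaling to the same sum and -0.00 with sample weights, FABP4 at -0.01 after rescaling, -0.00 after quantile normalization and -0.15 without ND birds 1 and 2, SPARC at -0.06 after quantile normalization, PCNA at -0.02 without ND birds 1 and 2, and FASN at -0.03 with sample weights. When each bird was left out, PLIN1 ranged from -0.05 to 0.07, INSIG1 from -0.10 to 0.43, GAPDH from -0.06 to 0.31, SPARC from -0.01 to 0.09, PCNA from -0.02 to 0.15, PPARG from -0.02 to 0.19, ADIPOQ from -0.01 to 0.41, FABP4 from -0.05 to 0.12, LPL from -0.08 to 0.48, CD36 from -0.07 to 0.08 and FASN from -0.13 to 0.23. The cause was not tested. Of 240 list medians under an alternative, 221 moved by less than 1 SD between birds.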

Other observations

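Further genes with steady separation, named here after their values were seen, lay outside the lists. The water channel AQP1, listed as RP5-877J2.1 and known to pass water in adipose vessels, was at 136, 101 and 197 FPKM in HFD and at 59.9, 77.9 and 72.4 FPKM in ND birds. LGALS1, a galectin that binds cell surface sugars, was at 817, 550 and 793 against 304, 476 and 400 FPKM, and clusterin (CLU), a secreted chaperone, at 584, 695 and 720 against 362, 521 and 420 FPKM. Full separation was part of the rule that chose these genes. The serotonin receptors HTR1B and HTR2A were both higher. HTR1B was at 46.9, 17.1 and 31.3 against 14.7, 9.57 and 10.2 FPKM. HTR2A was at 4.17, 6.57 and 6.94 against 2.97, 3.41 and 3.59 FPKM. Among HFD birds, HTR1B was highest and HTR2A lowest in HFD bird 1. GPC3, a cell surface proteoglycan, was at 29.7, 20.3 and 32.9 against 2.72, 13.8 and 17.1 FPKM.

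On the lower side, PIK3IP1, an inhibitor of phosphoinositide 3-kinase, was at 78.5, 61.2 and 45.5 FPKM in HFD and at 139, 97.2 and 125 FPKM in ND birds. GAS6, the ligand of the TAM receptors, was at 44.7, 40.6 and 34.9 against 53.0, 60.4 and 78.6 FPKM, and HHIP, which captures hedgehog ligands, at 1.44, 1.85 and 1.02 against 2.71, 2.85 and 2.69 FPKM. The diets did not overlap for these genes, as the rule that chose them requires.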
